A study of Mus musculus with 8 samples.

Results

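The cytochrome P450 enzymes (P450s) and their electron donor, P450 oxidoreductase (Por), were described in AML12 mouse hepatocytes cultured with and without irisin. The members were chosen by name alone. They are the genes whose symbol has the form Cyp, family number, subfamily letter and gene number, together with Por, found through the accession of each array probe that is not a control. The rule gave 98 genes, 97 P450s of 16 families and Por, on 119 probes, of 21612 named genes on 39429 probes. Of these probes, 28663 (72.7%) had an accession that RefSeq (GRCm38.p6) pairs with a symbol. A total of 4 members are transcribed pseudogenes. Cyp51, Tbxas1 and Ptgis are P450s whose symbols do not have this form, and they are given apart.

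P450s are heme enzymes that insert an atom of oxygen into their substrates. Most of those of the endoplasmic reticulum receive electrons from Por, and those of mitochondria from ferredoxin and its reductase. In liver, families with low numbers mainly oxidize drugs, other foreign compounds and fatty acids, and families with higher numbers mainly make or break down bile acids, steroids, retinoic acid and vitamin D. Many liver P450 genes are controlled by nuclear receptors, and hepatocytes in culture are known to lose much of their P450 expression.

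AML12 is an established line derived from hepatocytes of a mouse that carried a human TGF-α transgene. Irisin is the peptide cleaved from the membrane protein Fndc5. The groups were 4 samples without irisin and 4 samples with 0.5 µg/ml irisin, collected after 24 h in the same medium with serum, and each gave 1 array of Cy3-labeled RNA. The labels number the samples as replicates and do not say whether they came from separate passages or days, so the p-values cover only the spread between these samples. Each value below is the log2 of the signal after division by the 75th percentile of that array's signals (scaled signal). A value below 0 is a signal under that percentile, and a change is the mean of the irisin arrays minus the mean of the control arrays on this log2 scale. Levels of different probes depend on their sequence and are not compared.

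The percentile used for scaling ranged from 372 to 534 in the controls and from 682 to 850 with irisin, a log2 difference of 0.74 that moves with every change given here. The control arrays shared 1 slide and scan and the irisin arrays shared the other, so an effect of slide or scan and one of irisin cannot be told apart. On each array, 59.5% to 64.0% of the probes had a signal that the scanner software marked as well above background. Of 14 hepatocyte markers, 12 were well above background on all 8 arrays, among them albumin (Alb) and Hnf4a, while Tdo2 was on no array and Cps1 on some. Of markers of other liver cells, 4 of 5 bile duct, 2 of 6 stellate, 2 of 4 endothelial and 1 of 4 Kupffer or leukocyte genes were above background on all 8 arrays. The macrophage genes Adgre1 and Clec4f and the leukocyte gene Ptprc were on fewer than 8, and the endothelial gene Cdh5 and the stellate gene Lrat on none.

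About as many P450 genes were measured as were at or near background. A total of 50 member genes had a probe well above background on all 8 arrays, 16 on some arrays only, and 32 on no array. By probe, this was 54, 21 and 44 of 119. The share on all 8 arrays was 45.4% of member probes and 57.9% of all probes. By family, Cyp2 had 26 of 46 genes on all 8 arrays, Cyp4 had 12 of 22, and Cyp3 had 2 of 8. No gene of the families Cyp7, Cyp8, Cyp11, Cyp19 or Cyp24 was above background on all 8 arrays.

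**Figure D1:**
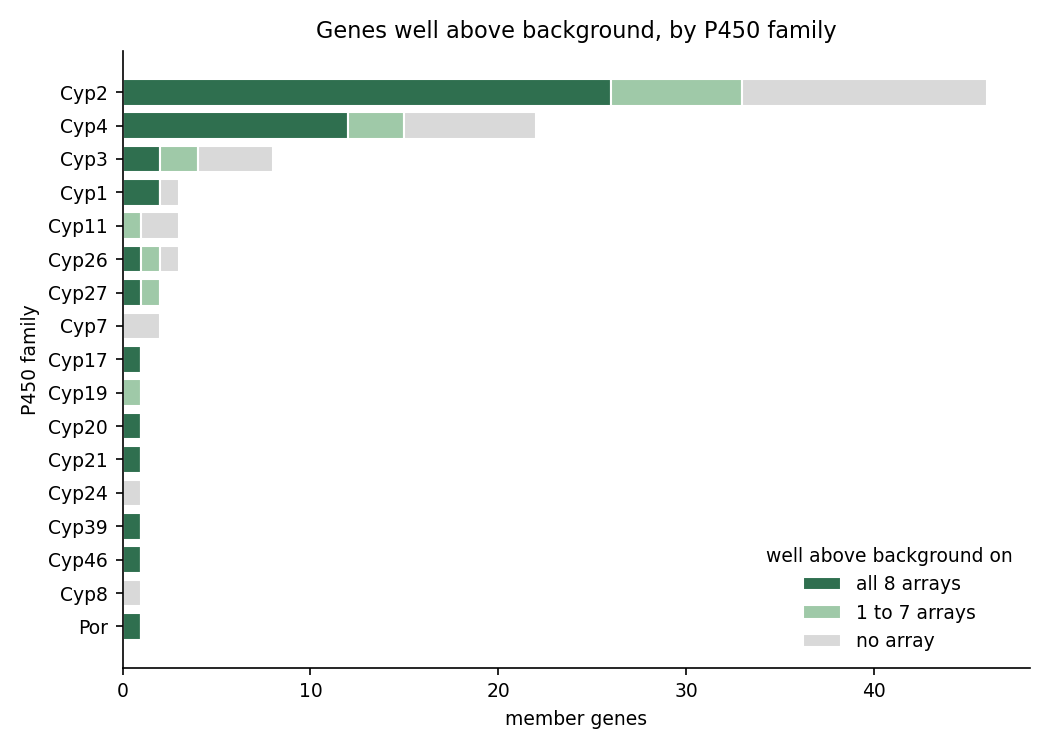
Number of member genes in each P450 family (horizontal axis) by the number of arrays on which a probe of the gene was well above background, with all 8 arrays in dark green, some arrays in light green and no array in grey. Cyp2 and Cyp4 hold most genes, with 26 of 46 and 12 of 22 on all 8 arrays, and Cyp3 has 2 of 8.

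Within the large families, genes of one cluster differed in whether they were measured. All 13 Cyp2c genes lie on chromosome 19, and 10 of them were above background on all 8 arrays. All 10 Cyp2d genes lie on chromosome 15, with 6 on all 8 arrays. The Cyp2b genes on chromosome 7, known for their induction by phenobarbital through the receptor CAR, were the opposite, with 0 of 5 on all 8 arrays. There, Cyp2b10 was above background on 1 irisin array, and Cyp2b9, Cyp2b13, Cyp2b19 and Cyp2b23 on none. Of 8 Cyp3a genes on chromosome 5, only Cyp3a13 and Cyp3a16 were on all 8 arrays. The main liver form Cyp3a11 was above background on 3 control and 4 irisin arrays.

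The genes with a known role, in liver or in other tissues, were likewise divided. Of 25 members listed by role, 11 were above background on all 8 arrays, 6 on some and 8 on none. Those on none were Cyp1a2, Cyp2b9, Cyp2b13, Cyp4a14, Cyp24a1 and the bile acid enzymes Cyp7a1, Cyp7b1 and Cyp8b1. Cyp7a1 is the rate-limiting enzyme of bile acid synthesis and Cyp8b1 directs it to cholic acid. Cyp1a1 and Cyp1a2, neighbours on chromosome 9 and both known targets of the aryl hydrocarbon receptor, differed, with Cyp1a1 above background on all 8 arrays and Cyp1a2 on none. A probe below background gives only a bound on the transcript, and 17 members had more than 1 probe, of which 7 had 1 probe on all 8 arrays and another on none.

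The promoters of members on both sides of this division are shown, since the rule did not use their letters and motif counts can be set beside the division. RefSeq promoters were matched by symbol for 72 members, and the 250 bases before each start were searched on both strands, overlaps allowed, for 4 short motifs. These were the core promoter box TATAAA, the GC box GGGCGG, the nuclear receptor core site AGGTCA and the aryl hydrocarbon receptor core site GCGTG. In the lines below, the last 180 bases before the start (GRCm38.p6) are given 5′ to 3′ on the strand of the gene, with every match to these motifs on either strand in capitals. The first pair holds GC boxes and belongs to genes on all 8 arrays, Por at chr5:135688965-135689144 (plus strand) and Cyp46a1 at chr12:108334136-108334315 (plus strand).
Por: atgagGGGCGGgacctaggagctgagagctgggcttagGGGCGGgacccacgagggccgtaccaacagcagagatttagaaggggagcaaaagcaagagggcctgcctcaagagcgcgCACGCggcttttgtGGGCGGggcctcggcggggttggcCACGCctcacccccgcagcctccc
Cyp46a1: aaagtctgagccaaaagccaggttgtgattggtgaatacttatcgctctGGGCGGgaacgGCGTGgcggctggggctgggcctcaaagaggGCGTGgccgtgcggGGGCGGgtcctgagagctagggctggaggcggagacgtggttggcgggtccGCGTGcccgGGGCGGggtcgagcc
The next pair holds the core promoter box and belongs to genes on all 8 arrays that were called down-regulated, Cyp2a4 at chr7:26307012-26307191 (plus strand) and Cyp2c38 at chr19:39463076-39463255 (minus strand).
Cyp2a4: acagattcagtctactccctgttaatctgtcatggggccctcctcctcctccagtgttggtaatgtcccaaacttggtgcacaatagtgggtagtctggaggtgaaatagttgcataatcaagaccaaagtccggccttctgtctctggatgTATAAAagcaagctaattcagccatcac
Cyp2c38: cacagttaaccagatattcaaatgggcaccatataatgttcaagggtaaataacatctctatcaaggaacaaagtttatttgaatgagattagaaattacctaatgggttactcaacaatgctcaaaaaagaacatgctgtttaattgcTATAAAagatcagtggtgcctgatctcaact
The neighbours Cyp1a1 at chr9:57697433-57697612 (plus strand), on all 8 arrays, and Cyp1a2 at chr9:57683656-57683835 (minus strand), on no array, both hold this box, and within this stretch only Cyp1a1 holds GCGTG.
Cyp1a1: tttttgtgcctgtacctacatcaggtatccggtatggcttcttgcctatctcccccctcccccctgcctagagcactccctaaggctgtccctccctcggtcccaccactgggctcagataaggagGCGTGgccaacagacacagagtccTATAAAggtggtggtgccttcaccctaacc
Cyp1a2: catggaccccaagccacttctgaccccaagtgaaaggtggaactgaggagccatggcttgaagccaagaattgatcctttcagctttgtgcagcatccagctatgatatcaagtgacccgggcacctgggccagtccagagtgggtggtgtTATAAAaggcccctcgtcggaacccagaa
The last pair holds AGGTCA and belongs to genes on no array, Cyp3a59 at chr5:146079078-146079257 (plus strand) and Cyp2b9 at chr7:26173229-26173408 (plus strand).
Cyp3a59: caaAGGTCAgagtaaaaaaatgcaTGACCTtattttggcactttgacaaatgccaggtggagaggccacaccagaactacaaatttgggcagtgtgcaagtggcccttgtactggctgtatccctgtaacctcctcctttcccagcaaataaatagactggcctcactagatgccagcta
Cyp2b9: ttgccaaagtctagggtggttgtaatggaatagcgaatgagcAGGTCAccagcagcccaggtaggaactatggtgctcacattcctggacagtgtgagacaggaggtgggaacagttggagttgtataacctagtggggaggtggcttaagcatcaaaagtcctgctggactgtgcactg

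In these windows the core promoter box starts 28 bases before the start of Cyp2a4, 31 before that of Cyp2c38, 30 before that of Cyp1a1 and 29 before that of Cyp1a2. Cyp3a59 holds AGGTCA 177 bases before the start on the strand of the gene and again 156 bases before it on the opposite strand. Over all 72 matched members, TATAAA was found in 37.5% against 14.3% of 27025 genes with a promoter, GGGCGG in 22.2% against 35.4%, AGGTCA in 18 members against 15.8% of those genes, and GCGTG in 20.8% against 30.9%. Of the 36 matched members on all 8 arrays, 15 held TATAAA, 13 GGGCGG, 4 AGGTCA and 11 GCGTG. Of the 22 matched members on no array, 6 held TATAAA, 0 GGGCGG, 10 AGGTCA and 2 GCGTG. The median GC content of the searched bases was 50.6% for the first group and 46.0% for the other. Several of the latter are near copies of each other in the Cyp2b and Cyp3a clusters, so the counts are not of independent promoters. Of 7 matched members called down-regulated, 3 held TATAAA and 1 held each of the other motifs. A match is a description of the letters and not of binding.

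With irisin, 10 P450 genes were lower and none was higher in limma at the thresholds of the study, a change of at least 1.5-fold and an adjusted p under 0.05. The 10 genes were Cyp2c37, Cyp2a4, Cyp2d40, Cyp46a1, Cyp4a10, Cyp4a31, Cyp2t4, Cyp17a1, Cyp2c38 and Cyp2r1, with changes from -1.46 to -0.62. They belong to 4 families and act on fatty acids, sterols, steroids and vitamin D among other substrates. Por and the P450s known as targets of the aryl hydrocarbon receptor, as well as Cyp2e1, Cyp3a13 and Cyp27a1, did not pass these thresholds. The test was limma with Benjamini-Hochberg adjustment over all tested probes, and it covered 57 probes of 52 members, each well above background throughout the 4 arrays of one group or the other. For a probe that entered through the control group alone, the filter itself favours a lower value with irisin, so its call is no support. This holds for Cyp2c37 and for the second of 2 called Cyp2a4 probes. Cyp3a11 entered through the irisin group alone, with a change of -0.20. Of the 54 member probes on all 8 arrays, 10 were called down-regulated, against 10.5% of 22818 such probes, and 0 were called up-regulated, against 0.692%. These 10 probes belong to 9 genes, without Cyp2c37.

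These counts have to be read against all probes. Of 24092 tested probes, 11.7% were called down-regulated and 0.714% up-regulated, and of 57 member probes 12 and 0. By gene, 10.7% of 14311 tested genes were called in either direction by their brightest tested probe, and 10 of 52 members. At an unadjusted p under 0.05 in limma, 20 of 57 member probes were lower, against 27.8% of all tested probes, and 2 were higher, against 6.45%. The test of the study's methods called 11 member probes lower, against 10.8% of all tested probes, and 0 higher, against 0.448%. The probe it did not call was that of Cyp2c37, with an adjusted p of 0.0612. The median change was -0.16 for the member probes and -0.08 for all tested probes. Below 0 were 37 of the 57 member probes and 65.2% of all tested probes. Values of the groups did not overlap for 18 lower member probes, against 23% of all tested probes, and for 1 higher member probe, against 4.18%.

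The share called depended on signal, over all probes and over members. When all tested probes were divided into 3 classes of equal size by mean scaled signal, 30.9% of the dim, 3.28% of the middle and 0.921% of the bright class were called down-regulated. Of the members, 10 of 34 (29.4%) in the dim, 2 of 18 (11.1%) in the middle and 0 of 5 in the bright class were called. The share in the dim class was thus near that of all probes. The 2 called members of the middle class were Cyp17a1 and Cyp2r1. Among probes of like signal, in 20 bins of equal size, 10 of the 57 member probes (17.5%) were below the 10th percentile of their bin and 5 (8.77%) above the 90th. For the called probes on all 8 arrays, the share of the bin that was lower was 1.08% for Cyp17a1 and 1.91% for Cyp46a1. It was 4.23% for Cyp2a4, 6.06% for Cyp2r1, 7.72% for Cyp4a31, and 7.23% and 25.4% for the probes of Cyp4a10. For Cyp2c38, Cyp2d40 and Cyp2t4 it was 11.0%, 11.5% and 16.8%. Cyp2c37 and the second Cyp2a4 probe, which entered the test through the control group alone, are among the called probes of the dim class. Cyp2c37 is also among those below the 10th percentile, so these counts include values that the filter favoured. The median processed signal of the negative control spots averaged 0.992 on the control and 1.00 on the irisin arrays. The percentile used for scaling was a log2 of 0.74 higher with irisin, so scaling places a spot at background lower there. Cyp7b1, on no array, had a mean of -8.85 in the controls and -9.62 with irisin. How much this entered the changes of the dim members was not tested.

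**Figure D2:**
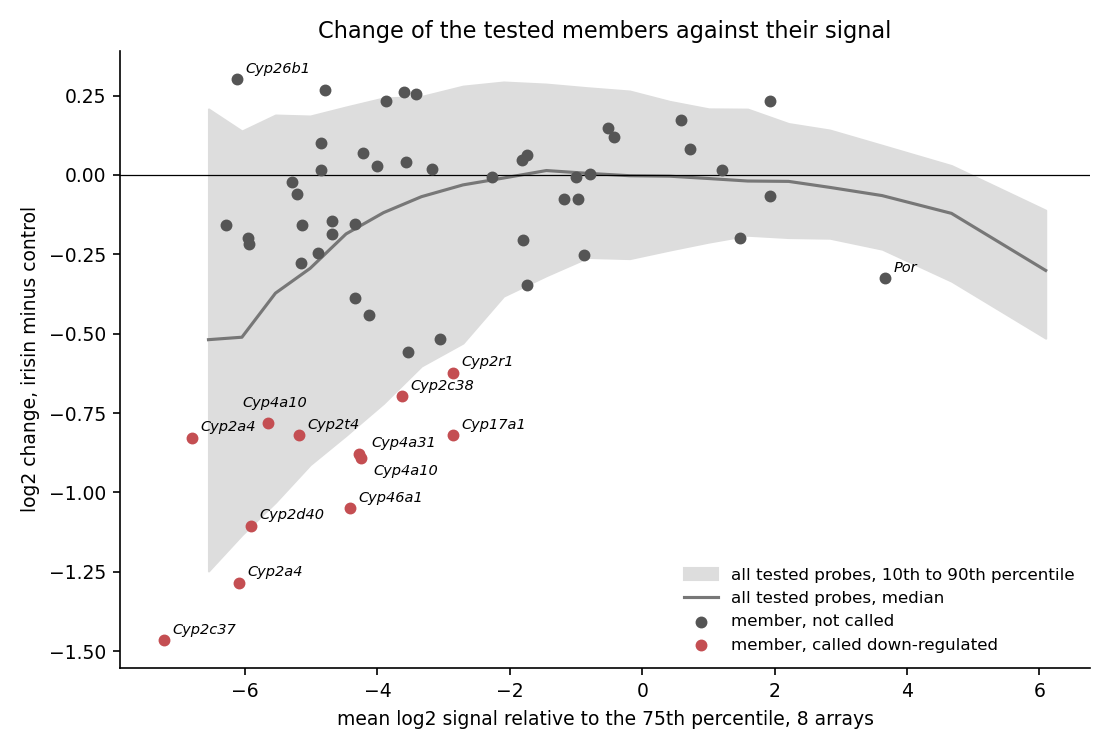
Log2 change with irisin (vertical axis) against the mean scaled signal over 8 arrays (horizontal axis) for 57 tested member probes, called ones in red, with the median and the 10th to 90th percentile of all tested probes in 20 bins of signal as a line and a grey band. The called members are mostly at the dim end, where the median of all probes is also below 0, with -0.51 near Cyp2a4 and -0.03 near Cyp17a1.

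Members of the Cyp4a subfamily on chromosome 4, which hydroxylate the end of fatty acid chains and are known targets of PPARα, were lower in part. The scaled signal of Cyp4a10 was -3.66, -3.91, -3.92 and -3.71 on the control arrays and -4.51, -4.74, -4.83 and -4.69 on the irisin arrays. All irisin values were below all control values, and the change was -0.89 (SE 0.10, adjusted p = 0.000179, limma). A second probe of Cyp4a10 changed by -0.78 (SE 0.16, adjusted p = 0.00417, limma), and a further one was above background on 1 array and was not tested. Cyp4a31, a close copy, read -3.85, -4.03, -3.85 and -3.64 on the control arrays and -4.56, -4.84, -4.76 and -4.71 on the irisin arrays, again with no overlap. Its change was -0.88 (SE 0.10, adjusted p = 0.000221, limma). Of its further probes, one was above background on 2 control arrays and the other on no array, and neither was tested. Probe sequences were not used here, so how far the probes of these 2 genes detect each other's transcript was not tested. Cyp4a12b changed by -0.28 and Cyp4a12a by -0.16, and neither passed the thresholds. Cyp4a14 was on no array. The gene of the regulator, Ppara, changed by -0.21 (SE 0.10, adjusted p = 0.171, limma).

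Sterol and steroid P450s included the called members that lay lowest among probes of like signal. Cyp46a1 on chromosome 12, the cholesterol hydroxylase known best from brain, read -3.80, -3.98, -3.91 and -3.88 on the control arrays and -5.14, -4.85, -4.82 and -4.96 on the irisin arrays. The groups were separated by far more than the spread within them, with a change of -1.05 (SE 0.09, adjusted p = 0.000106, limma), and 1.91% of the probes in its bin of signal were lower. Cyp17a1 on chromosome 19, which makes precursors of androgens, read -2.37, -2.29, -2.68 and -2.45 on the control arrays and -3.39, -3.04, -3.44 and -3.19 on the irisin arrays. Its groups did not overlap either, its change was -0.82 (SE 0.12, adjusted p = 0.000602, limma), and 1.08% of the probes in its bin were lower. Both genes were also called with quantile normalization and cyclic loess. Neither was called with scaling to the spike-in probes, where Cyp46a1 changed by -0.47 and Cyp17a1 by -0.24, or with no scaling, where they changed by -0.31 and -0.08. The steroid gene Cyp21a1 changed by -0.52 (adjusted p = 0.00172, limma), which passed the test but not 1.5-fold, while Cyp11a1 and Cyp19a1 were above background on 2 and 1 of 8 arrays.

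Other enzymes of sterol and bile acid metabolism did not follow Cyp46a1. Cyp39a1, an oxysterol hydroxylase, read 1.74, 1.78, 1.56 and 2.15 on the control arrays and 1.44, 2.55, 2.41 and 1.74 on the irisin arrays, so that the irisin arrays spread more than the change of 0.23 (SE 0.23, adjusted p = 0.548, limma). Cyp27a1, the mitochondrial sterol hydroxylase of the acidic bile acid pathway, read -4.00, -3.88, -3.90 and -4.29 on the control arrays and -3.58, -4.14, -4.18 and -4.04 on the irisin arrays. The groups of Cyp27a1 overlapped over most of their range, with a change of 0.03 and a 95% confidence interval from -0.29 to 0.35. Cyp51, the lanosterol demethylase of cholesterol synthesis, changed by 0.08 (adjusted p = 0.655, limma).

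**Figure D3:**
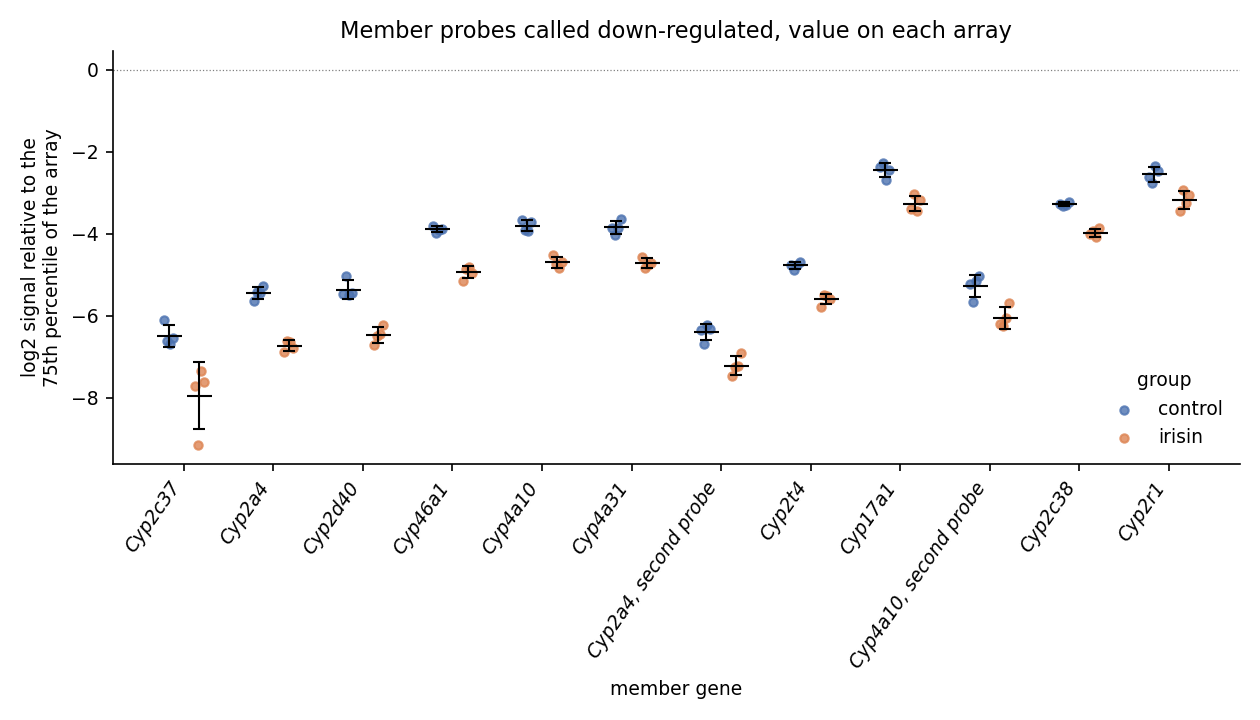
Scaled signal (log2, vertical axis) of the 12 called member probes on each array, control in blue and irisin in orange, with the mean and SD of 4 arrays as black bars. For each of the 12 probes all irisin values lie below all control values, and the irisin values of Cyp2c37 spread from -9.15 to -7.34.

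In the vitamin D pathway, Cyp2r1 on chromosome 7, which carries out the first hydroxylation of vitamin D in liver, read -2.62, -2.77, -2.34 and -2.48 on the control arrays and -3.45, -2.94, -3.25 and -3.06 on the irisin arrays. The groups did not overlap, and the gap between them was small, with the lowest control array at -2.77 and the highest irisin array at -2.94. Its change of -0.62 (SE 0.13, adjusted p = 0.00491, limma) was close to the 1.5-fold threshold, and was -0.55 without control replicate 3 and -0.53 without irisin replicate 1, where it no longer reached 1.5-fold. A second probe of Cyp2r1 was on no array. Cyp24a1, which breaks down active vitamin D, was on no array, and Cyp27b1, which makes it, was above background on 1 control and 2 irisin arrays. Vdr, the vitamin D receptor, changed by 0.04 (adjusted p = 0.789, limma).

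Of the retinoic acid hydroxylases, Cyp26b1 on chromosome 6 had the highest change of all 57 tested member probes. It read -5.86, -6.33, -6.56 and -6.36 on the control arrays and -6.19, -5.60, -5.96 and -6.15 on the irisin arrays, with overlapping groups and a change of 0.30 (SE 0.17, adjusted p = 0.242, limma). With quantile normalization the change was 0.81, with cyclic loess 0.79, and it was called up-regulated in both. Cyp26b1 was also called up-regulated with scaling to the spike-in probes (0.88) and with no scaling (1.04), as were 32.4% and 61.9% of all tested probes. The direction turned with the normexp background correction without local background, where the change was -0.53 (adjusted p = 0.000402, limma). In its bin of signal, 96.1% of the probes had a lower change. Cyp26a1 was above background on 2 irisin arrays and Cyp26c1 on none.

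In the Cyp2 family, called members came from the subfamilies a, c, d, r and t. Cyp2a4 on chromosome 7, a steroid hydroxylase with a near-identical copy, Cyp2a5, read -5.64, -5.42, -5.45 and -5.28 on the control arrays and -6.89, -6.61, -6.64 and -6.79 on the irisin arrays. This gave a change of -1.28 (SE 0.10, adjusted p = 9.18e-05, limma), and a second probe, above background on 4 control and 3 irisin arrays, changed by -0.83. That probe entered the test through the control group alone, so its lower value adds nothing to the first. Which of the copies the probes detect was not tested. Cyp2d40 read -5.48, -5.03, -5.50 and -5.45 on the control arrays and -6.71, -6.50, -6.44 and -6.22 on the irisin arrays, with control replicate 2 above the other control arrays. Even so, the groups were apart, with a change of -1.10 (SE 0.13, adjusted p = 0.000266, limma), and of -1.19 to -0.99 with each array left out in turn. In the bin of signal of Cyp2d40 the median change of all probes was -0.51, and 11.5% of the probes were lower. The other 5 Cyp2d genes on all 8 arrays changed by -0.25 to -0.15.

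Cyp2t4 read -4.76, -4.89, -4.76 and -4.68 on the control arrays and -5.78, -5.49, -5.51 and -5.58 on the irisin arrays, a change of -0.82 (SE 0.09, adjusted p = 0.000176, limma) with no overlap. With quantile normalization its change was -0.46 and with cyclic loess -0.43, and it was not called in either.

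Of the Cyp2c genes, 2 of 11 tested were called, and each of these had a second probe that was on no array. Cyp2c38, an arachidonic acid epoxygenase, read -3.27, -3.33, -3.30 and -3.23 on the control arrays and -4.01, -3.94, -4.09 and -3.87 on the irisin arrays. The arrays within a group lay close together, and the change was -0.70 (SE 0.08, adjusted p = 0.000195, limma). Cyp2c37, also an arachidonic acid enzyme, read -6.10, -6.60, -6.69 and -6.55 on the control arrays and -7.71, -9.15, -7.34 and -7.60 on the irisin arrays. Only irisin replicate 3 of its irisin arrays was well above background, so the change of -1.46 (SE 0.33, adjusted p = 0.00800, limma) rests partly on values near background, and it was -1.06 without irisin replicate 2. Cyp2c29, a known target of CAR and PXR, read -2.51, -2.39, -2.03 and -2.14 on the control arrays and -2.23, -2.63, -2.08 and -2.15 on the irisin arrays. Its groups covered nearly the same range, with a change of -0.01 and a 95% confidence interval from -0.32 to 0.31. Among the others, Cyp2c70 changed by -0.44 (adjusted p = 0.0110, limma), below 1.5-fold, and Cyp2c65 by 0.27 and Cyp2c54 by 0.23, which did not pass the test.

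The ethanol-inducible Cyp2e1 read -4.10, -4.31, -4.44 and -3.72 on the control arrays and -4.84, -4.26, -4.49 and -4.54 on the irisin arrays. The groups overlapped, and the change was -0.39 (SE 0.17, adjusted p = 0.125, limma). Cyp2s1, known to be induced through the aryl hydrocarbon receptor, read 1.62, 1.55, 1.61 and 1.55 on the control arrays and 1.23, 1.58, 1.29 and 1.43 on the irisin arrays, a change of -0.20 (SE 0.09, adjusted p = 0.161, limma). For Cyp2s1, irisin replicate 2 lay within the control range and the other 3 irisin arrays below it. In the Cyp2j subfamily, whose enzymes act on arachidonic acid, Cyp2j8 changed by 0.01, and Cyp2j6 by 0.08 on its brighter and 0.26 on its dimmer probe. The dimmer Cyp2j6 probe was the 1 member probe whose irisin values all lay above the control values, and its adjusted p was 0.0674 in limma.

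Of the known targets of the aryl hydrocarbon receptor in the Cyp1 family, neither Cyp1a1 nor Cyp1b1 passed the thresholds. Cyp1a1 read -1.45, -1.42, -1.78 and -1.60 on the control arrays and -1.98, -1.61, -1.82 and -2.21 on the irisin arrays, a change of -0.35 (SE 0.13, adjusted p = 0.0919, limma). Cyp1b1 on chromosome 17 read -3.55, -3.77, -3.63 and -3.98 on the control arrays and -3.45, -3.64, -3.32 and -3.47 on the irisin arrays, a change of 0.26 (SE 0.11, adjusted p = 0.127, limma). In both genes the groups overlapped. The direction of Cyp1a1 turned with scaling to the spike-in probes (0.23) and with no scaling (0.39), and that of Cyp1b1 with the normexp correction (-0.23). Cyp1b1 was called up-regulated with the spike-in probes (0.84) and with no scaling (1.00). The receptor gene Ahr changed by 0.10 and its partner Arnt by 0.05.

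The Cyp3a genes, which oxidize many drugs, showed no call. Cyp3a13 read 1.96, 1.92, 2.02 and 1.93 on the control arrays and 1.95, 1.75, 1.97 and 1.89 on the irisin arrays, a change of -0.07 with a 95% confidence interval from -0.24 to 0.11. Its other tested probe changed by 0.15, so that the probes differed in sign. Cyp3a11 read -6.21, -5.52, -5.89 and -5.79 on the control arrays and -6.05, -6.34, -5.97 and -5.83 on the irisin arrays, a change of -0.20 (SE 0.15, adjusted p = 0.413, limma) that was 0.27 with quantile normalization. Cyp3a16 changed by 0.02.

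**Figure D4:**
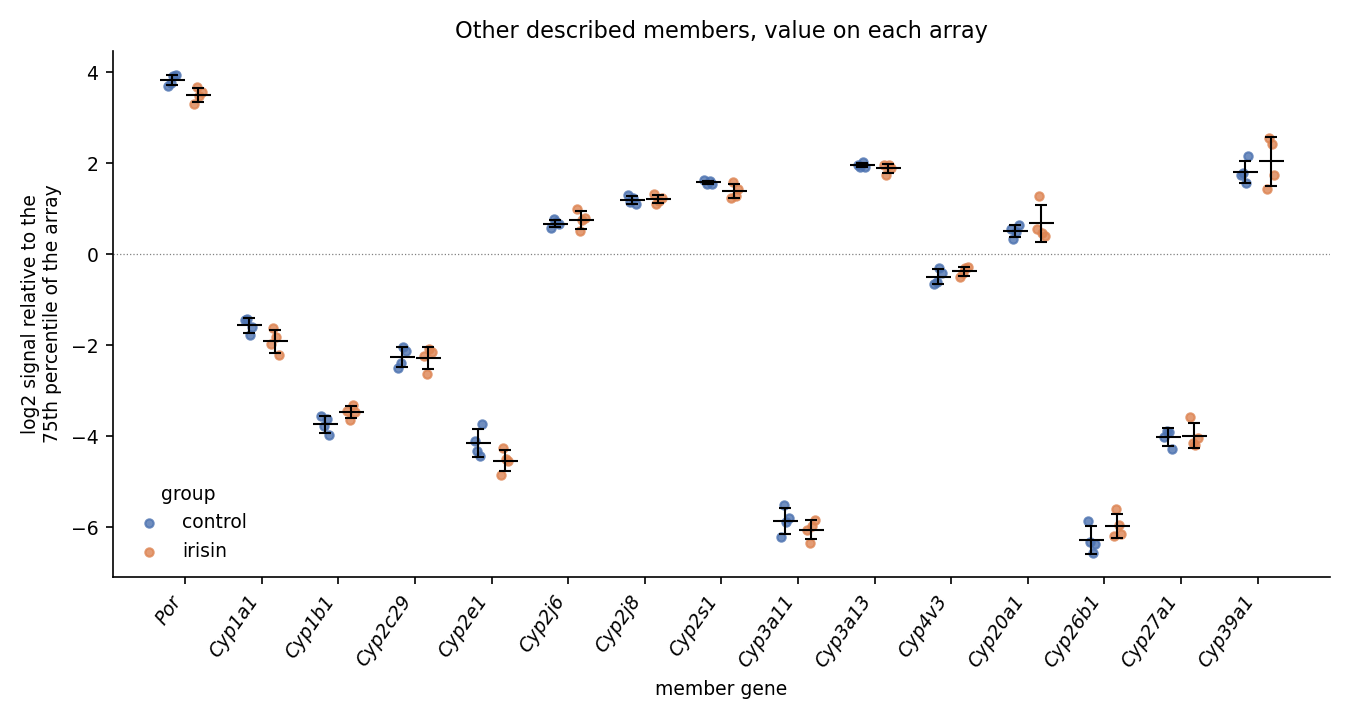
Scaled signal (log2, vertical axis) of Por and 14 P450s that were not called, on each array, control in blue and irisin in orange, with the mean and SD of 4 arrays as black bars. Por is the 1 gene here whose groups do not overlap, with irisin values from 3.30 to 3.67 and control values from 3.70 to 3.94.

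Por on chromosome 5 supplies most P450s of the endoplasmic reticulum with electrons. It read 3.70, 3.76, 3.92 and 3.94 on the control arrays and 3.30, 3.67, 3.49 and 3.56 on the irisin arrays. Every irisin value was below every control value, by a narrow margin, and the change was -0.33 (SE 0.10, adjusted p = 0.0382, limma), which is under 1.5-fold. With each array left out in turn the change was between -0.38 and -0.26 and the adjusted p between 0.0160 and 0.107. In its bin of signal the median of all probes was -0.07, and 3.32% of the probes were lower. With scaling to the spike-in probes the change of Por was 0.25 and with no scaling 0.41.

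None of the other proteins that serve P450s was called. The list held 19 genes of cytochrome b5, its reductases, ferredoxin, ferredoxin reductase, the heme-binding Pgrmc proteins and the making and breakdown of heme, and all 19 were above background on all 8 arrays. None was called in either direction by limma, against 10.7% of all tested genes. That share comes mostly from dim probes, and no gene of the list was in the dim class of signal. Over all tested probes, 3.28% of the middle and 0.921% of the bright class were called down-regulated, against 30.9% of the dim class. Of the 19 genes, 0 were higher and 1 lower at an unadjusted p under 0.05 in limma, against 5.94% and 23.6% of all tested genes. Their median change was -0.03, against -0.06 for all tested genes. The lower one was Cpox, of heme synthesis, with -0.26 (SE 0.08, adjusted p = 0.0347, limma), under 1.5-fold. Alas1, which sets the rate of heme synthesis, changed by -0.04. Hmox1, which breaks down heme, changed by 0.67 with a SE of 0.32 (adjusted p = 0.166, limma), and its irisin arrays spread most, with a SD of 0.79 against 0.21 in the control arrays.

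Among 24 genes of transcription factors known to control P450 genes, 22 were tested and 1 was called, against 10.7% of all tested genes, with a median change of -0.11. At an unadjusted p under 0.05 in limma, 0 were higher and 3 lower, against 5.94% and 23.6% of all tested genes. Of the tested regulators, only Nr0b2, Nr1i2, Onecut1 and Rora were in the dim class of signal, where 30.9% of all probes were called down-regulated. The others were in the middle and bright classes, where 3.28% and 0.921% were. The called gene was Nr0b2, the repressor known as SHP that restrains bile acid synthesis, which went from -5.95 ± 0.13 to -6.75 ± 0.11 (SD, n = 4 in each group), a change of -0.79 (SE 0.09, adjusted p = 0.000242, limma). Nr0b2 is a dim probe, and neither quantile normalization nor cyclic loess left it called. Nr1h4, the bile acid receptor FXR, changed by -0.20 (adjusted p = 0.0747, limma) and Nr1i2, the receptor PXR, by 0.17 (adjusted p = 0.429, limma). Nr1i3, the receptor CAR, was above background on some arrays and was not tested. Hnf4a, which maintains the hepatocyte state, changed by -0.10.

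The remaining 27 tested members, on 28 probes, changed by -0.56 to 0.27. Of these, 3 had an adjusted p under 0.05 in limma without reaching 1.5-fold, and all 3 were lower. They were Cyp4f18, with a change of -0.56, and Cyp21a1 and Cyp2c70, given above. The other Cyp4f genes on all 8 arrays, Cyp4f13, Cyp4f14, Cyp4f16, Cyp4f17 and the pseudogene Cyp4f41-ps, changed by -0.21 to 0.07. Cyp4v3, which acts on fatty acids, changed by 0.12. Cyp20a1, a P450 of unknown function, changed by 0.17, with 1 irisin array at 1.28 and the other 3 between 0.40 and 0.56.

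The direction of these changes depends on how the arrays are put on a common scale. All tested probes had a median change of 0.50 with scaling to 8 spike-in probes and of 0.66 with no scaling. With the spike-in probes, 19 of 57 member probes were called up-regulated, against 32.4% of all tested probes, and 2 down-regulated, against 1.5%. With no scaling, 28 were called up-regulated, against 61.9%, and 1 down-regulated, against 0.672%. The 12 called probes lay below those medians, with changes of -0.89 to -0.05 with the spike-in probes and of -0.73 to 0.12 with no scaling, where Cyp2c38 (0.04) and Cyp2r1 (0.12) were above 0. With quantile normalization, and likewise with cyclic loess, 6 of the 12 probes were called down-regulated, those of Cyp17a1, Cyp2d40, Cyp46a1 and Cyp4a31 and 1 probe each of Cyp2a4 and Cyp4a10. Cyp2c37, Cyp2c38, Cyp2r1 and Cyp2t4 were not. Over all tested probes, 4.24% were called down-regulated and 2.78% up-regulated with quantile normalization, and 3.84% and 2.9% with cyclic loess.

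**Figure D5:**
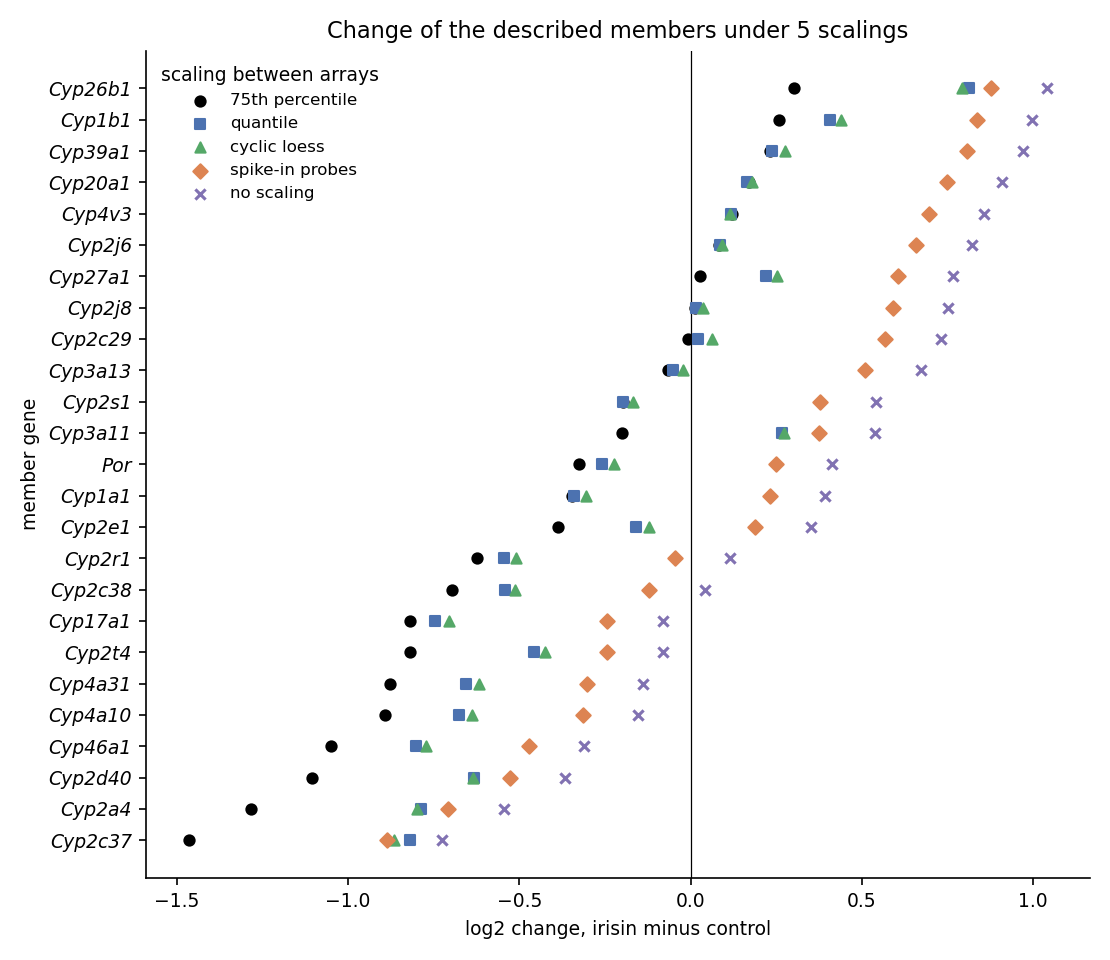
Log2 change with irisin (horizontal axis) of 25 described members (rows, ordered by the change with 75th percentile scaling) under 5 ways of scaling the arrays, each with its own symbol. The called members are at the lower end under each scaling, and Por moves from -0.33 with the 75th percentile to 0.25 with the spike-in probes and 0.41 with no scaling.

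The summed levels of the marker lists differed in how they lay in the groups. The log2 of the summed scaled signal was taken over the tested markers of each list. For 4 of 5 bile duct markers the sum was 5.79 to 5.95 in the controls and 5.86 to 5.93 with irisin. Of the 4 Kupffer or leukocyte markers only Cd68 was tested, with -2.02 to -1.53 in the controls and -1.87 to -1.65 with irisin. The irisin arrays thus lay within the control range for both lists. For 2 of 4 fetal or progenitor markers the sum was -0.045 to 0.26 in the controls and -0.16 to 0.11 with irisin, with overlap. The groups did not overlap for the other 3 lists. For 2 of 4 endothelial markers the sum ranged from -0.53 to -0.36 in the controls and from -1.30 to -0.80 with irisin. For 2 of 6 stellate markers, Col1a1 and Col1a2, it ranged from -3.87 to -3.12 in the controls and from -4.48 to -3.95 with irisin. For 12 of 14 hepatocyte markers it ranged from 8.91 to 9.06 in the controls and from 8.62 to 8.86 with irisin. Of the hepatocyte markers Tat was called down-regulated, with a change of -0.77 (SE 0.10, adjusted p = 0.000405, limma). The brightest of this list, Krt18 and Trf, which weigh most in its sum, changed by -0.47 (adjusted p = 0.00522, limma) and -0.39 (adjusted p = 0.0204, limma), under 1.5-fold. In the brightest bin of signal, where both lie, all tested probes had a median change of -0.30 and a 10th percentile of -0.51. The changes of Krt18 and Trf lay between these values. The median change of the tested hepatocyte markers was -0.096. How much the lower values of bright probes entered the hepatocyte sum was not tested. Alb (0.11) and Apob (0.24) were higher and did not pass the test. Also called down-regulated were Dlk1 of the fetal list (-1.32), Col1a2 of the stellate list (-1.08) and Pecam1 of the endothelial list (-0.61). Col1a1 changed by 0.01. In RNA from whole cultures, fewer cells of a type and less RNA per cell cannot be told apart. The part of these markers in the changes of the P450 genes was not tested.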

How the data were processed

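RNA of AML12 cells was hybridized to 8 Agilent arrays with 1 dye, of which the deposited labels give 4 as control and 4 as irisin (0.5 µg/ml, 24 h). The authors processed the scans with Agilent Feature Extraction (version 12 in the submitters' processing notes), which subtracts background. The signal intensity they deposited is linear, without normalization from array to array, and a deposited value table equals the mean processed intensity of each probe.

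From the scanner values, spots marked as outliers were left out, at most 0.463% of 43020 spots per array, and no spot was saturated. Spots of a probe were averaged, and the log2 of the signal over the array's 75th percentile was used. Differences were tested with limma 3.58.1 in R 4.3.3 (lmFit and eBayes, Benjamini-Hochberg adjustment over 24092 probes), at 1.5-fold and an adjusted p under 0.05. Where groups of 4 arrays do not overlap, the exact two-sided permutation p is 0.0286, the smallest that 70 assignments allow. Where a gene is described by 1 value, the probe with the highest mean signal stands for it. On simulated arrays, 180 of 200 changed probes (90.0%) among 24092 were recovered, and 4 unchanged probes were called. The simulated arrays had independent noise and no difference of slide, scaling or background between the groups. They therefore check the fit and do not measure false calls in these data. The number of arrays limits the precision. Gene names, chromosomes and promoters are from RefSeq (GRCm38.p6). The files give positions on another build, which were not used.

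The members, the roles, the gene lists and the tests were chosen with earlier results of these data known. Genes named are Por, members with a called probe, members above background on all 8 arrays, and 25 members with known roles, and other genes were named after their values were seen. Alternatives were the background correction, the scaling, the filter on dim probes, marked spots, the value table, the variance model, the replicate block, the thresholds, the test and each array left out in turn. Python 3.11.15, pandas 2.3.3, scipy 1.17.1 and matplotlib 3.10.9 were used.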

Additional observations from a re-analysis of the deposited data

Results flagged for a closer look

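In 2 of 56 groups of 4 arrays, 1 array stood apart from the rest, where chance gives about 1 in 20 groups. For Cyp2d40, control replicate 2 read -5.03 while the other control arrays lay between -5.50 and -5.45. The number of spots marked as outliers was 135 on irisin replicate 1 and between 95 and 99 on the other irisin arrays.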

How the results depend on the processing

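The 12 down-regulated and 0 up-regulated member probes, the median change of -0.16, the 0 called redox and heme genes and the 1 called regulator gene were recomputed under each alternative. With quantile normalization there were 6 down-regulated and 1 up-regulated member probes, a median of 0.056 and 0 called regulators. With cyclic loess there were again 6 and 1, with a median of 0.091 and 0 called regulators. With spike-in scaling there were 2 down-regulated and 19 up-regulated member probes, a median of 0.42, and 4 redox and 8 regulator genes called. With no scaling there were 1 and 28, a median of 0.58, and 17 redox and 15 regulator genes called. With no filter there were 46 down-regulated of 119 member probes, a median of -0.52 and 2 called regulators, beside 12750 of 39429 probes in all. Without the filter, probes at background enter, and their scaled signal moves with the percentile. The 2-fold threshold left 4 down-regulated member probes and 0 regulators, and the adjusted p alone called 1 redox gene and 16 lower member probes. The normexp background correction planned with the local background was fitted but gave background means of -306 and -395 on irisin replicates 2 and 4, against -10.7 to -8.06 on the other arrays, and was not used. Normexp without the local background, chosen after seeing the data, adds 50 to every signal before scaling, and gave 13 down-regulated member probes, a median of -0.42, 1 redox gene and 2 regulators called, and 3614 down-regulated probes in all. Other than for the settings named here, the cause of each difference was not tested.

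Changes that turned sign with spike-in scaling were those of Por (0.25), Cyp1a1 (0.23), Cyp2c29 (0.57), Cyp3a11 (0.38), Cyp2e1 (0.19), Cyp3a13 (0.51) and Cyp2s1 (0.38), and with no scaling those of Por (0.41), Cyp2c38 (0.042), Cyp2r1 (0.12), Cyp1a1 (0.39), Cyp2c29 (0.73), Cyp3a11 (0.54), Cyp2e1 (0.35), Cyp3a13 (0.67) and Cyp2s1 (0.54). Normexp turned Cyp1b1 (-0.23), Cyp27a1 (-0.34) and Cyp26b1 (-0.53). Quantile normalization turned Cyp2c29 (0.022) and Cyp3a11 (0.27), and cyclic loess the same genes (0.063 and 0.27). The mean over the probes turned Cyp3a13 (0.041). With each array left out in turn, the down-regulated member probes numbered 11 to 13 and the redox genes called 0 to 1, and the changes of Cyp2c29 (-0.088 to 0.11), Cyp27a1 (-0.11 to 0.093), Cyp2j8 (-0.022 to 0.048) and Cyp20a1 (-0.029 to 0.26) turned sign.

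Arrays with the same replicate number did not deviate together throughout, with correlations of 0.13, -0.38, -0.14 and 0.18 for the 4 numbers. The replicate block left 12 down-regulated and 0 up-regulated member probes, with 173 up-regulated and 2831 down-regulated probes in all. The deposited value table, marked spots kept, the median of detected probes and an intensity trend with robust eBayes also gave 12 and 0, the methods' test 11 and 0, and the stricter filter 10 of 54 and 0. Signal over background limits what can be seen, since 32 members were on no array.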
